A study of Mus musculus with 4 samples.

Results

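The matrix metalloproteinases (MMPs), the ADAMTS proteases and their tissue inhibitors (TIMPs) were followed through the stromal cells of mouse long bone after loss of endothelial Lats2, a kinase of the Hippo pathway. Members were taken by symbol from the gene list of the count matrices, namely every numbered Mmp and Adamts gene and Timp1 to Timp4, without pseudogenes. The rule gave 46 genes of 53703 features, of which 23 were MMP, 19 ADAMTS and 4 TIMP genes. Metaphyses of femur and tibia came from 12-week-old mice of both sexes on a C57/BL6 background, were depleted of cells carrying lineage markers, CD45 or CD117, and were sequenced on the 10x Chromium platform. The mutants (Lats2iΔEC) carried Cdh5(PAC)-CreERT2, a recombinase under an endothelial promoter, together with lox/lox alleles of Lats2, and had been given tamoxifen. The controls were Cre-negative littermates which, by the methods of the study, had the same tamoxifen, although the label of the deposit calls them untreated. Each genotype had 2 libraries, which the study calls biological replicates, and the number of animals in a library is not given in the sources used here.

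MMPs are zinc proteases that are made as inactive precursors and cut collagens, gelatin and other matrix proteins once their propeptide is removed. ADAMTS proteases join a related catalytic domain to thrombospondin repeats, and include the enzymes that trim procollagen and those that cut aggrecan and versican. TIMPs block the active site of MMPs, and Timp3, which stays bound to the matrix, also inhibits several ADAMTS enzymes. In growing bone these enzymes are best known from the growth plate, where Mmp13 of hypertrophic chondrocytes and Mmp9 of resorbing cells take part in removing cartilage.

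The libraries held 69636600 to 85899079 UMIs. After filtering, 24648 barcodes were sorted with 9 lists of 8 marker genes, none of them a member, into endothelial cells (ECs), smooth muscle and mural cells (SMCs), diaphyseal and metaphyseal bone marrow stromal cells (dpMSCs and mpMSCs), osteoblasts (OBs), fibroblasts (FBs), and growth plate, hypertrophic and Prg4-marked chondrocytes (GPCHOs, HCHOs and SFCHOs). Each name stands for cells like that type by its markers, a rebuilt sorting and not the annotation of the study. In all, 19719 barcodes passed such a gate, 2267 passed a gate for blood cells and 2662 passed none, and 84 gated cells shared their barcode with a cell of another library. Those in no gate numbered 763 and 920 of 5125 and 5889 in the mutants and 492 and 487 of 6833 and 6801 in the controls. The share left out was thus larger in both mutant libraries, and its part in the comparisons below was not tested. In ECs, Lats2 stood at 91.6 and 97.3 CPM (counts scaled to a fixed library total) in the mutants and 134 and 124 CPM in the controls, and Cre-ERT2 at 53.9 and 48.2 against 0.653 and 0.840 CPM. Levels are CPM of the summed counts of a gate in a library, given below as both mutants against both controls. Fewer cells with a transcript and fewer transcripts per cell cannot be told apart in them, and levels were not compared between genes because they are not set per length.

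Of the MMP genes, 10 form a cluster on chromosome 9 (9:7272514-7699587, GRCm39), of which Mmp13, Mmp3 and Mmp12 had enough counts for a test in at least 1 gate. The DNA before the starts of these 3 and of their untested neighbours Mmp10 and Mmp8 is shown because Mmp13 and Mmp3, which share the cluster, had their highest levels in different gates. Mmp12 has 2 listed starts. The sequences are the 120 bases before each start (RefSeq, GRCm38.p6, plus strand). Capitals mark the letters TGANTCA, the motif known for AP-1 factors, searched on both strands.

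Mmp13, chr9:7272394-7272513: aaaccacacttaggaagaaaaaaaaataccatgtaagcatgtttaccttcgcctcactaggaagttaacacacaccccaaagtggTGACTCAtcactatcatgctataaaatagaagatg

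Mmp3, chr9:7445702-7445821: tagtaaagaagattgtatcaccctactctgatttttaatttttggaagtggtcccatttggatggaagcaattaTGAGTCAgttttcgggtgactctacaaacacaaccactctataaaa

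Mmp12, chr9:7344277-7344396: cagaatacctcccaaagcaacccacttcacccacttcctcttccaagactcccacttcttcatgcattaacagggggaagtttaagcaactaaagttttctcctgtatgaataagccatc

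Mmp12, chr9:7347254-7347373: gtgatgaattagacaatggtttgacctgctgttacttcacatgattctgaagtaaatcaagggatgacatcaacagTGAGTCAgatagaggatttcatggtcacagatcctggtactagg

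Mmp10, chr9:7502222-7502341: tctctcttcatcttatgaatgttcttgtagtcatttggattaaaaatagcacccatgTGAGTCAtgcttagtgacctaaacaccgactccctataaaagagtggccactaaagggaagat

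Mmp8, chr9:7558309-7558428: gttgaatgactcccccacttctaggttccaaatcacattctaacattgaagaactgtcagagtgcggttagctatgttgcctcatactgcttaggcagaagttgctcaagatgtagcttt

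The motif began 35 bases before the start of Mmp13, 46 before that of Mmp3 and 63 before that of Mmp10, and these letters were not found before Mmp8. They began 44 bases before one start of Mmp12 and were not found before the other. Of the 46 members, 32 matched an entry of the promoter table by symbol. The rest, among them Mmp2, Mmp9, Mmp16, Adamts4 and Adamts5, had no entry and were not searched. Windows of 300 bases, from 250 before to 50 after each listed start, were read. TGANTCA was held by 8 of the 10 cluster genes, by 0 of the 22 other members with an entry and by 7.81% of all 32851 windows. A gene can have more than 1 window, as Mmp12 shows, so counts of genes and the percent of windows are unlike measures. GGAATG, the motif known for the TEAD partners of the Hippo pathway, was held by 0 of the 10 cluster genes, by 2 of the 22 others (Adamts13 and Timp1) and by 14.7% of all windows. A match is a description of letters only.

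In the controls, the members were spread over the gates rather than led by one (heat map of control levels). Of the 46 members, 31 reached 10 CPM in at least 1 gate. Of these, 7 had their highest level in mpMSCs, 6 in ECs, 4 each in dpMSCs, SMCs and FBs, 2 each in OBs, HCHOs and SFCHOs, and 0 in GPCHOs. The mpMSCs led for the collagenase Mmp13 (2199.8 ± 390.4 CPM, mean ± SD, n = 2 libraries), the gelatinase Mmp9 (529.8 ± 141 CPM), the membrane collagenase Mmp14 (444 ± 21.5 CPM) and Adamts9 (625 ± 42.8 CPM). ECs led for Adamts5 (489.7 ± 54.2 CPM), Adamts1 (245 ± 4.85 CPM), Adamts4 (114 ± 20.4 CPM) and Mmp15 (58.5 ± 3.17 CPM).

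OBs led for Mmp2 (391 ± 8.23 CPM) and the membrane-bound Mmp16 (718 ± 12.0 CPM), and dpMSCs for the procollagen trimming enzymes Adamts2 (664 ± 10.4 CPM) and Adamts14 (53.2 ± 4.51 CPM). SMCs led for Timp4 (363 ± 48.4 CPM), Adamts15 (113 ± 28.2 CPM) and Adamts12 (140.5 ± 14.6 CPM). Timp2 was highest in FBs (1108 ± 60.0 CPM), Timp3 in HCHOs (1369 ± 188 CPM) and Adamts6 in SFCHOs (366 ± 60.8 CPM). For Mmp19, Adamts18 and Timp1 the libraries of the first and the second gate overlapped, so that their order is not set by these data. Adamts16 was among the 10 genes that most marked the FB gate.

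**Figure D1:**
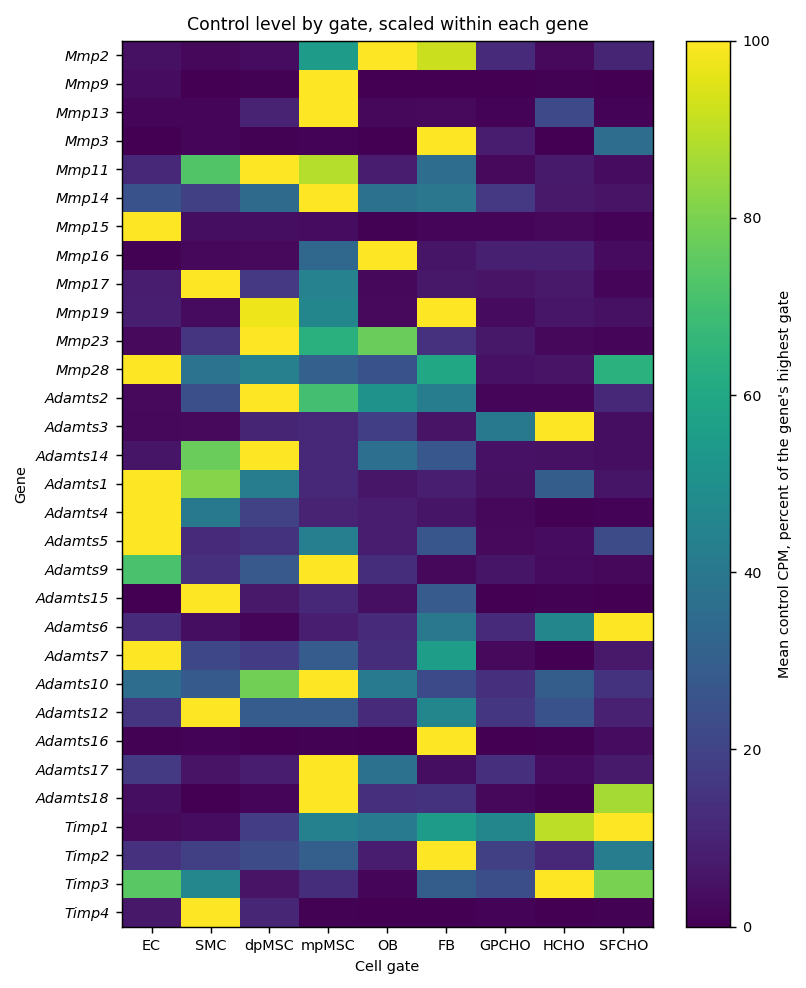
Mean control level (n = 2 libraries) of the 31 members that reached 10 CPM, one row per gene and one column per gate, as percent of the gene's highest gate (colour). Yellow marks the leading gate, such as mpMSC for Mmp13 and Mmp9, EC for Adamts5 and OB for Mmp16.

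The genotype comparison asked which proteases and inhibitors differed between mutant and control libraries in each gate. It used edgeR's quasi-likelihood test on counts summed per library, with Benjamini-Hochberg adjustment over all genes tested in the gate and a call at an adjusted p of at most 0.05. Of the 46 members, 35 had enough counts for a test in at least 1 gate and 16 in all 9, and 11 were tested in none. Of the 35, 31 were called somewhere, and 11 of them were higher in one gate and lower in another (heat map of fold changes). Fold changes are log2 of mutants over controls ± SE, with n = 2 libraries per genotype. Calls are those of edgeR, and an alternative that ended a call stands beside its p, as does DESeq2 where it made one. The gates and cell filters were made stricter and looser, free RNA was subtracted, genes were filtered by the share of cells that held them or not at all, and other scalings and a replicate block were used.

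In SMCs 12 rose and 5 fell of 26 tested, with 31.5% of all genes called, 16.5% higher and 14.9% lower. In mpMSCs 13 rose and 6 fell of 30 tested (21.2% of all genes called, 11.8% higher and 9.44% lower) and in dpMSCs 8 rose and 5 fell of 29 tested (22.2% of all genes called, 11.7% higher and 10.5% lower). In ECs 6 rose and 9 fell of 28 tested (37.2% of all genes called, 19.1% higher and 18.1% lower). The share of members called was thus above that of all genes in each of these 4 gates. Among genes counted in at least 20% of the cells of a genotype, 8 members were called in ECs. This count, and those below for other tests, gates or filters, stand without the share of all genes. The comparison with all genes thus holds for the main settings only.

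Among the chondrocytes, 10 rose and 5 fell of 29 tested in GPCHOs (35.6% of all genes called, 19.4% higher and 16.2% lower), and 1 rose and 9 fell of 21 tested in HCHOs (41.3% of all genes called, 21.2% higher and 20.1% lower). In GPCHOs 9 members were called by DESeq2 and 7 with the filter on cells. In SFCHOs 3 rose and 5 fell of 24 tested (9.88% of all genes called, 5.7% higher and 4.18% lower), or 2 and 6 when scaled by total counts, and 3 were called with the stricter gate. In OBs 6 rose and 2 fell of 25 tested (6.49% of all genes called, 4.53% higher and 1.95% lower), or 6 and 0 when scaled by total counts. The 8 calls in OBs became 3 without control library 1 and 4 without control library 2. In FBs 0 of 23 members were called by edgeR (1.8% of all genes called, 0.993% higher and 0.811% lower), with 4 at an unadjusted p under 0.05 and 0 called by DESeq2. The looser gate called 3, and 1 was called without mutant library 1 and 1 without mutant library 2. The median log2 fold change over the members tested was 0.76 in SMCs, 0.36 in mpMSCs, -0.22 in ECs and -0.67 in HCHOs, where that over all genes tested was -0.0069, -0.0044, -0.00012 and 0.0070.

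Where a call also had to reach a size of 1 on the log2 scale, the members called, and in brackets the percent of all genes, were 12 (11.6%) in SMCs, 7 (8.01%) in mpMSCs, 4 (4.21%) in dpMSCs, 5 (8.31%) in ECs, 6 (8.76%) in GPCHOs, 6 (17%) in HCHOs, 2 (1.92%) in SFCHOs, 2 (2.37%) in OBs and 0 (1.2%) in FBs. Changes of this size were thus a larger share of the members than of all genes in each of these gates other than FBs. In the subgates of ECs and SMCs, described below, the same counts were 4 (4.99%) in aECs, 3 (4.06%) in bmECs, 5 (8.05%) in mpECs, 6 (2.88%) in the Myh11 and 12 (11.9%) in the Rgs5 cells.

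**Figure D2:**
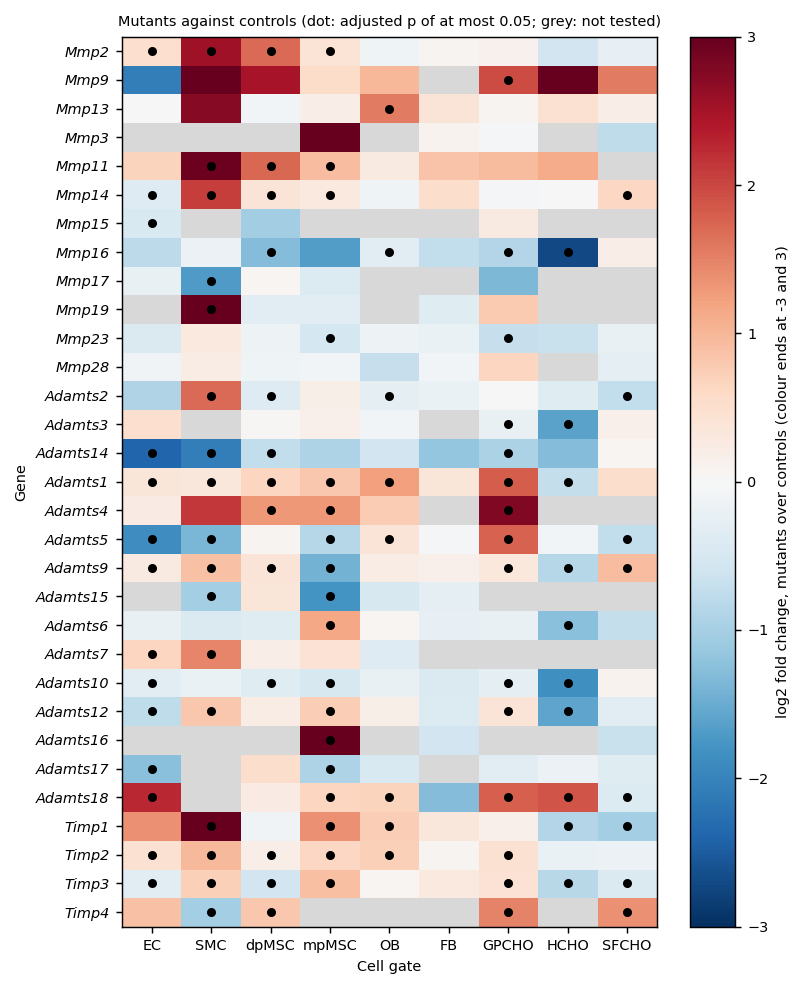
log2 fold change of mutants over controls (colour, ending at -3 and 3) for the same 31 members by gate, where a black dot marks an adjusted p of at most 0.05 and grey an untested gene. The SMC column holds 12 members called higher, and the HCHO column 9 called lower. Mmp12 in mpMSCs and Mmp25 in ECs were called but lay under 10 CPM and are not drawn.

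Of the collagenases and gelatinases, Mmp2, which cuts denatured collagen and type IV collagen, rose in 4 gates. In SMCs it stood at 49.8 and 40.9 against 7.88 and 8.20 CPM (2.53 ± 0.23, adjusted p = 2.94e-11). In dpMSCs it stood at 43.5 and 43.3 against 13.1 and 14.3 CPM (1.69 ± 0.13, adjusted p = 1.40e-12). In both, the mutants lay well above the controls. The rise was smaller in mpMSCs, at 256 and 285 against 210.0 and 219.6 CPM (0.41 ± 0.09, adjusted p = 0.00142, over 0.05 with the stricter gate). It was also small in ECs, at 26.3 and 22.6 against 15.02 and 21.2 CPM (0.51 ± 0.16, adjusted p = 0.0230, 0.240 without control library 1 and over 0.05 without mutant library 1, 0.194 by DESeq2, over 0.05 with the stricter cell filter or total counts). In OBs, the leading gate, Mmp2 stood at 368 and 367 against 385 and 397 CPM (-0.14 ± 0.06, adjusted p = 0.222) and was not called.

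Mmp13, the main interstitial collagenase of mouse bone, rose in OBs, with 135 and 140.5 against 44.5 and 45.8 CPM (1.56 ± 0.08, adjusted p = 6.78e-08, over 0.05 with the looser gate) and no overlap. Estimated free RNA made up 8.69% of that level. In the 2 gates where Mmp13 was highest it was not called by edgeR. The mpMSCs had 2268 and 2530.2 against 2476 and 1924 CPM (0.20 ± 0.11, adjusted p = 0.260) and overlapped. HCHOs had 639 and 717 against 582 and 391 CPM (0.45 ± 0.18, adjusted p = 0.122, 0.0178 by DESeq2). A count of Mmp13 was held by 59.1% and 57.6% of the mutant HCHOs and 31.7% and 28.6% of the control HCHOs. Their median depths were 8751 and 8280 against 16439 and 16915 UMIs. The share of cells was thus higher in both mutant libraries at a lower depth, a difference that was not tested.

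The gates that held the Mmp13 transcripts differed between the genotypes. The mpMSCs held 18.4% and 23.4% in the mutants and 57.1% and 55.1% in the controls, as percent of the Mmp13 UMIs of all filtered barcodes. HCHOs held 28.5% and 28.0% in the mutants and 8.22% and 5.90% in the controls. Barcodes in no gate held 37.0% and 31.5% in the mutants and 15.7% and 13.7% in the controls. The mpMSC share was thus lower and the others higher in both mutant libraries. The number of cells moved with these shares, since mpMSCs counted 185 and 235 in the mutants and 493 and 507 in the controls. HCHOs counted 809 and 833 in the mutants and 167 and 147 in the controls. Barcodes in no gate counted 763 and 920 in the mutants and 492 and 487 in the controls. The totals of Mmp13 were 19190.0 and 21665 UMIs in the mutants and 19273 and 16723 in the controls.

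Mmp9, the gelatinase best known from osteoclasts, totalled 11582 and 7289 UMIs in the mutants and 4316 and 4693 in the controls (plot of UMI shares). Barcodes in no gate held 63.6% and 71.5% in the mutants and 47.2% and 28.6% in the controls. The mpMSCs held 13.6% and 12.8% in the mutants and 44.3% and 64.2% in the controls. Most of the Mmp9 UMIs of the mutants thus lay in cells that no marker list placed. Within mpMSCs the level, at 1014 and 466 against 429.8 and 629.7 CPM (0.55 ± 0.59, adjusted p = 0.637), overlapped between the genotypes. The level of the barcodes in no gate, 1020.3 and 597 against 459.8 and 292 CPM, was not tested, as these cells are of no one kind.

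**Figure D3:**
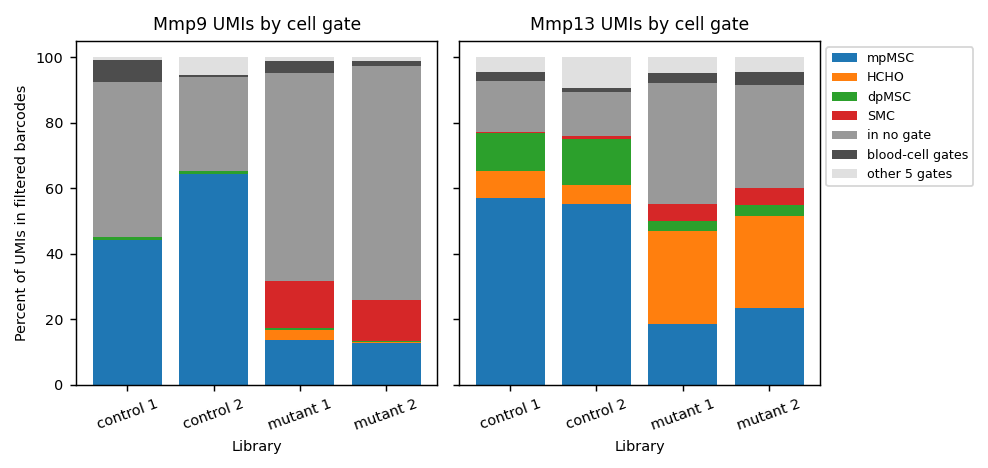
Share of the Mmp9 (left) and Mmp13 (right) UMIs that fell in each gate, as stacked bars in percent, one bar per library. The mpMSC share is smaller in both mutant libraries for both genes, and SMCs held 14.1% and 12.3% of the Mmp9 UMIs in the mutants and 0.0695% and 0.0426% in the controls.

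In GPCHOs, Mmp9 was called at 5.79 and 2.15 against 0.733 and 1.43 CPM (1.96 ± 0.59, adjusted p = 0.0492, 0.263 without control library 1 and over 0.05 without mutant library 1, over 0.05 with the looser cell filter, the stricter cell filter, the stricter gate, the looser gate or RLE scaling), but estimated free RNA made up 116% of that level.

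In SMCs, Mmp9 stood at 471 and 223 CPM in the mutants and 1.69 and 1.09 CPM in the controls, that is 2534 counts in the mutants and 5 in the controls, a ratio of 243 (95% counting interval 104 to 750.3) by exact Clopper-Pearson limits, which cover counting error only. Here and below, such limits take each UMI as independent. The mutant UMIs of Mmp9 lay in 24 and 25 cells, so the limits leave out the spread between cells and between libraries. The mutants lay above the controls but differed from each other, and edgeR did not call it (7.97 ± 1.23, adjusted p = 0.0538, 2.91e-29 by DESeq2). After each cell was thinned to 1000 UMIs, 3.74% and 2.75% of mutant SMCs held an Mmp9 UMI, against 0 of 288 and 0 of 297 control SMCs, which allows shares of up to 1.27% and 1.23% (exact 95% limits) of cells with a UMI at that depth. Without thinning the shares were 5.27% and 4.91% against 1.04% and 0.337%, at median depths of 6800.0 and 7043 against 5661 and 5735 UMIs. Free RNA alone was estimated at 1.31 and 1.49 CPM in control SMCs, about the level found there, so that their UMIs were read as background. It was 5.88 and 5.19 CPM in mutant SMCs. ECs had 0.184% and 0.296% against 0% and 0.240% after thinning, and 3.68% and 1.93% against 0.834% and 0.841% before it. Their median depths were 6869.5 and 6544 against 5627 and 5324 UMIs. Free RNA was estimated at 5.84 and 4.20 CPM in the mutant ECs, beside levels of 3.83 and 4.31 CPM, so that the shares of the mutant ECs were read as background. In the control ECs it was 1.22 and 1.41 CPM, beside levels of 1.14 and 35.9 CPM, so that control library 2 lay above its free RNA. Of the Mmp9 counts of ECs in that library, 94.4% lay in a subgate of metaphyseal ECs (mpECs), at 120 CPM.

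Of the unthinned SMCs with an Mmp9 UMI, 17 of 24 and 17 of 25 in the mutants also held one of Mmp13, against 0 of 3 and 0 of 1 in the controls. In mpMSCs the same counts were 27 of 27 and 31 of 34 in the mutants and 48 of 50 and 62 of 64 in the controls. An Mmp9 UMI was held there by 14.6% and 14.5% of the mutant and 10.1% and 12.6% of the control cells. A split of the SMCs placed 70.9% and 99.8% of the mutant Mmp9 counts in a subgate marked by Rgs5, a mural cell gene. There Mmp9 stood at 593 and 376 against 0 and 4.57 CPM, with 2056 counts in the mutants and 2 in the controls, a ratio of 213 (95% counting interval 58.9 to 1759), and was called (7.84 ± 0.75, adjusted p = 0.00470, 0.0850 without control library 1 and over 0.05 without control library 2, over 0.05 with the looser cell filter or the looser gate). Mmp13 moved with it in this subgate, at 396 and 423 against 2.17 and 32.0 CPM (4.75 ± 0.53, adjusted p = 0.00701), on 1784 counts in the mutants and 15 in the controls, a ratio of 24.6 (95% counting interval 14.9 to 44.1). Its log2 fold change was 3.84 to 7.64 with 1 library left out. Over all SMCs it stood at 279 and 270.3 against 3.94 and 81.5 CPM (2.72 ± 1.09, adjusted p = 0.237) and was not called. In the subgate 10 rose and 3 fell of 22 tested, with 22.9% of all genes called, 11.7% higher and 11.2% lower.

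Marker lists moved in the same cells. In the Rgs5 subgate the SMC list summed to 8273 and 8752 against 22033 and 23046 CPM and the mpMSC list to 6455 and 6086 against 681 and 496 CPM, and over all SMCs the osteoclast list summed to 188 and 201 against 48.4 and 45.4 CPM. Most of the osteoclast sum was Ctsk alone, at 162 and 178 against 37.7 and 31.7 CPM over all SMCs. Spp1, of the mpMSC list, stood there at 5114 and 4357 against 210 and 340 CPM. The Rgs5 subgate made up 55.8% and 57.4% in the mutants and 25.7% and 24.9% in the controls of SMCs. The part of these lists and shares in the levels of the SMC gate, here and for the genes below, was not tested.

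Among the stromelysins, Mmp11, whose propeptide is removed by furin inside the cell, rose in 3 gates. SMCs had 134 and 148 against 16.3 and 21.9 CPM (2.93 ± 0.15, adjusted p = 1.08e-17). The dpMSCs had 80.6 and 87.8 against 27.2 and 25.1 CPM (1.72 ± 0.09, adjusted p = 1.23e-15) and the mpMSCs 46.0 and 39.2 against 23.2 and 23.4 CPM (0.94 ± 0.17, adjusted p = 2.59e-04). The libraries of the genotypes did not overlap in any of the 3. Both subgates of SMCs had the rise. The cells marked by Myh11, a contractile gene, had 44.5 and 38.5 against 8.62 and 12.6 CPM (1.98 ± 0.30, adjusted p = 3.49e-05). Those marked by Rgs5 had 169 and 193 against 30.4 and 48.0 CPM (2.36 ± 0.21, adjusted p = 9.58e-09). In the Myh11 subgate 6 rose and 2 fell of 23 tested (8.5% of all genes called, 5.13% higher and 3.36% lower), and DESeq2 called 4.

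Mmp3, a stromelysin that also activates other MMPs, was highest in FBs, at 109 and 113 against 96.7 and 129 CPM (0.10 ± 0.19, adjusted p = 0.866), and was not called there. In mpMSCs it stood at 47.5 and 5.50 against 0.675 and 1.67 CPM (4.42 ± 1.80, adjusted p = 0.281, 0.0232 by DESeq2), so that both mutants lay above the controls but differed from each other. Mmp12, the elastase of macrophages, was called in mpMSCs with 18 counts in the mutants and 14 in the controls, a ratio of 3.34 (95% counting interval 1.57 to 7.25) (1.78 ± 0.54, adjusted p = 0.0219, 0.458 without mutant library 2 and over 0.05 without control library 1 or control library 2, 0.325 by DESeq2). Mmp1a, Mmp1b, Mmp7, Mmp8, Mmp10, Mmp20, Mmp21, Mmp24 and Mmp27 had too few counts for a test in any gate, as had Adamts13 and Adamts19.

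The membrane-type MMPs differed in direction. Mmp14, a membrane collagenase that together with Timp2 activates the precursor of Mmp2, rose in SMCs, at 352 and 334 against 91.7 and 78.2 CPM (2.07 ± 0.10, adjusted p = 4.99e-18). The Rgs5 subgate had 435 and 471 against 184 and 146 CPM (1.60 ± 0.14, adjusted p = 6.37e-09). The Myh11 subgate had 72.9 and 90.7 against 54.3 and 55.9 CPM (0.62 ± 0.18, adjusted p = 0.0278, 0.319 without mutant library 2 and over 0.05 without control library 1 or control library 2, 0.613 by DESeq2, over 0.05 with the stricter gate). Mmp14 was thus higher in both kinds of SMC, but its call in the Myh11 cells was lost under these alternatives. It also rose in dpMSCs, at 191 and 201 against 151 and 157 CPM (0.38 ± 0.06, adjusted p = 1.52e-05). In mpMSCs it stood at 514 and 521 against 459.5 and 429 CPM (0.30 ± 0.08, adjusted p = 0.0111, 0.180 without control library 2, 0.0564 by DESeq2, over 0.05 with total counts). SFCHOs had 32.9 and 36.4 against 20.6 and 25.7 CPM (0.61 ± 0.13, adjusted p = 0.0105, 0.0962 without control library 1, 0.118 by DESeq2, over 0.05 with the stricter gate or the looser gate). The 3 rises were smaller than that in SMCs. ECs fell, with 71.7 and 90.2 against 108 and 118 CPM (-0.38 ± 0.10, adjusted p = 0.0129, 0.0844 without mutant library 1).

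Mmp16, a membrane-bound relative of Mmp14, fell in 4 gates. HCHOs had 9.11 and 10.9 against 52.1 and 75.3 CPM (-2.70 ± 0.19, adjusted p = 1.07e-06), a change whose size exceeded that in the other 3 gates. dpMSCs stood at 7.86 and 7.49 against 21.2 and 17.7 CPM (-1.30 ± 0.19, adjusted p = 3.82e-06) and GPCHOs at 34.02 and 30.1 against 65.8 and 59.1 CPM (-0.87 ± 0.08, adjusted p = 5.78e-08). OBs, the leading gate, fell less, with 541 and 639.7 against 709 and 726 CPM (-0.33 ± 0.07, adjusted p = 0.0103, 0.307 without control library 2 and over 0.05 without control library 1, over 0.05 with total counts). In mpMSCs the mutants lay below the controls without a call, at 47.5 and 92.0 against 250.2 and 229 CPM (-1.67 ± 0.31, adjusted p = 0.0511, 0.00318 by DESeq2).

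Mmp15, whose control level outside ECs was low, fell in ECs, with 42.4 and 37.9 against 60.8 and 56.3 CPM (-0.47 ± 0.09, adjusted p = 0.00105). Mmp17, which is anchored to the membrane by a lipid, fell in SMCs, with 5.47 and 8.18 against 20.8 and 25.7 CPM (-1.70 ± 0.28, adjusted p = 6.54e-06). Mmp25, anchored in the same way, fell in ECs, with 1.53 and 0.770 against 3.10 and 3.36 CPM (-1.43 ± 0.45, adjusted p = 0.0199, 0.218 without mutant library 2 and over 0.05 without control library 2 or control library 1, 0.254 by DESeq2). Of the remaining MMPs, Mmp19 rose in SMCs, with 72 counts in the mutants and 2 in the controls, a ratio of 17.3 (95% counting interval 4.62 to 146) (4.05 ± 0.66, adjusted p = 6.89e-06). Mmp23 fell in mpMSCs, with 57.2 and 58.0 against 84.8 and 89.8 CPM (-0.52 ± 0.12, adjusted p = 0.00274, 0.116 by DESeq2, over 0.05 with the stricter gate), and in GPCHOs, with 5.08 and 5.42 against 8.87 and 9.19 CPM (-0.69 ± 0.16, adjusted p = 0.00286, 0.0800 by DESeq2).

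The procollagen N-proteinases cut the amino-terminal propeptide from fibrillar procollagens. Adamts14 fell in SMCs, with 8.06 and 10.4 against 38.3 and 43.8 CPM (-2.08 ± 0.21, adjusted p = 5.08e-10). It fell in dpMSCs, with 30.8 and 31.7 against 56.4 and 50.0 CPM (-0.74 ± 0.11, adjusted p = 3.66e-06). In both gates the genotypes did not overlap. In ECs it fell on few counts, 6 counts in the mutants and 35 in the controls, a ratio of 0.177 (95% counting interval 0.0608 to 0.425) (-2.37 ± 0.58, adjusted p = 0.00463, 0.128 without control library 2). In GPCHOs it stood at 1.02 and 1.52 against 3.08 and 2.17 CPM (-0.94 ± 0.33, adjusted p = 0.0314, 0.247 without control library 1 and over 0.05 without mutant library 1, 0.284 by DESeq2, over 0.05 with the stricter gate or free RNA subtracted). Adamts3 fell in HCHOs, its leading gate, with 33.6 and 33.4 against 111 and 89.6 CPM (-1.61 ± 0.11, adjusted p = 2.09e-07), and no mutant library reached a control. Its level in GPCHOs was 32.2 and 32.4 against 37.4 and 43.1 CPM (-0.23 ± 0.09, adjusted p = 0.0491, 0.504 without control library 2 and over 0.05 without mutant library 1 or mutant library 2, 0.297 by DESeq2, over 0.05 with the stricter gate, the filter on cells or the replicate block). Adamts2 rose in SMCs, with 498 and 522 against 147 and 177 CPM (1.71 ± 0.09, adjusted p = 1.05e-16). It was lower in the other gates that called it. The dpMSCs had 502 and 500.0 against 671 and 657 CPM (-0.38 ± 0.05, adjusted p = 1.74e-07). SFCHOs had 42.1 and 44.6 against 83.7 and 65.3 CPM (-0.73 ± 0.11, adjusted p = 0.00194). OBs had 279 and 289 against 331 and 345 CPM (-0.30 ± 0.06, adjusted p = 0.00956, 0.342 without control library 2 and over 0.05 without control library 1, over 0.05 with total counts).

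The proteoglycanases cut aggrecan and versican, and Adamts4 and Adamts5 are the best known aggrecanases. Adamts1 (16:85590579-85600009) and Adamts5 (16:85653061-85698716) are neighbours on the minus strand of chromosome 16 (GRCm39), 53.1 kb apart. In ECs, Adamts5 fell, with 133 and 119.9 against 451 and 528 CPM (-1.87 ± 0.08, adjusted p = 9.54e-10). Adamts1 rose, with 293 and 300.0 against 248 and 242 CPM (0.36 ± 0.06, adjusted p = 3.51e-04). The 2 neighbours thus moved in opposite directions over all ECs. The EC effect on Adamts5 differed from the mean effect in the other 8 gates by -1.78 ± 0.12 (adjusted p = 2.56e-10, at most 1.25e-04 without 1 library), in a test that called 6 of 34 members and 13.6% of all genes, and 2 members without control library 2.

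The EC gate held vessels of several kinds. The sinusoidal bmECs, marked by Stab2 and Flt4, held 78.4% and 81.0% in the mutants and 94.4% and 96.2% in the controls of the Adamts5 counts of ECs. Within them Adamts5 fell less, with 861 and 829 against 1357 and 1537 CPM (-0.71 ± 0.10, adjusted p = 4.13e-04), where 4 rose and 3 fell of 19 tested (10% of all genes called, 5.82% higher and 4.22% lower). The 7 calls in bmECs became 3 without control library 1 and 3 by DESeq2. The bmECs made up 14.2% and 11.9% in the mutants and 30.5% and 29.3% in the controls of the EC gate, a share that was lower in both mutant libraries and moved with the fall over all ECs. Other lists moved in the EC gate as well. A list of 8 monocyte and macrophage markers summed to 102 and 92.1 against 366 and 354 CPM there, with Ptprc at 0.192 and 0 against 0 and 0.168 CPM. A list of 8 erythroid markers summed to 565 and 481 against 271 and 202 CPM in ECs and was higher in both mutants in each of the 9 gates. The part of these lists and of the bmEC share in the levels was not tested. In arterial aECs and metaphyseal mpECs, Adamts5 was low and not called. It stood at 7.32 and 8.10 against 6.27 and 15.3 CPM (-0.38 ± 0.45, adjusted p = 0.651) in aECs and 27.8 and 23.5 against 41.3 and 24.4 CPM (-0.30 ± 0.23, adjusted p = 0.377) in mpECs. In mpECs 3 rose and 4 fell of 22 tested (28% of all genes called, 14.6% higher and 13.4% lower), and DESeq2 called 4.

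Adamts1 and Adamts4 rose in aECs, where 5 rose and 3 fell of 17 tested (15.6% of all genes called, 8.85% higher and 6.79% lower), or 4 and 4 when scaled by total counts, and DESeq2 called 4. Adamts1 stood at 483 and 522 against 254 and 267 CPM (1.05 ± 0.10, adjusted p = 3.59e-07). Adamts4 stood at 104 and 109.7 against 46.7 and 57.0 CPM (1.14 ± 0.15, adjusted p = 2.47e-05). Both genes rose in bmECs as well. In bmECs Adamts1 had 399 and 462 against 273 and 277 CPM (0.72 ± 0.12, adjusted p = 0.00169) and Adamts4 254 and 289 against 157 and 218 CPM (0.61 ± 0.16, adjusted p = 0.0305, 0.405 without control library 1, 0.0791 by DESeq2). In mpECs both mutants lay below both controls for Adamts1 without a call, at 194 and 170.2 against 242 and 208 CPM (-0.23 ± 0.10, adjusted p = 0.108). Over all ECs, Adamts4 stood at 119 and 134 against 99.5 and 128 CPM (0.24 ± 0.13, adjusted p = 0.187) and its libraries overlapped.

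Outside ECs, Adamts1 rose in both stromal gates, OBs, GPCHOs and SMCs. The dpMSCs had 163 and 150.4 against 105 and 100.1 CPM (0.64 ± 0.07, adjusted p = 5.73e-09). The mpMSCs had 48.2 and 45.5 against 29.0 and 27.4 CPM (0.80 ± 0.15, adjusted p = 4.92e-04). OBs had 32.0 and 39.0 against 13.8 and 15.7 CPM (1.23 ± 0.15, adjusted p = 2.37e-04). GPCHOs had the largest change of these gates, with 36.8 and 37.9 against 11.1 and 11.3 CPM (1.82 ± 0.10, adjusted p = 4.69e-11). It fell in HCHOs, with 46.7 and 42.6 against 75.6 and 68.2 CPM (-0.72 ± 0.11, adjusted p = 1.71e-04), the 1 gate of 9 in which it was called lower. In SMCs it stood at 229 and 263 against 226 and 175 CPM (0.35 ± 0.11, adjusted p = 0.0165, 0.282 without control library 2 and over 0.05 without mutant library 2, 0.106 by DESeq2, over 0.05 with the stricter cell filter, the looser gate, total counts or the replicate block). The Myh11 subgate had the larger rise, with 459.5 and 504 against 216 and 223 CPM (1.18 ± 0.10, adjusted p = 3.65e-09).

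Adamts4 rose in GPCHOs, with 14.7 and 14.2 against 1.47 and 2.99 CPM (2.78 ± 0.21, adjusted p = 3.40e-08). The dpMSCs had 57.2 and 51.3 against 22.4 and 22.7 CPM (1.29 ± 0.11, adjusted p = 3.75e-11). The mpMSCs had 28.9 and 24.0 against 10.4 and 12.1 CPM (1.29 ± 0.22, adjusted p = 2.07e-04, over 0.05 with the stricter gate), a similar fold. In SMCs the mutants lay above the controls without a call, at 156 and 232 against 37.1 and 55.2 CPM (2.12 ± 0.38, adjusted p = 0.0530, 1.33e-06 by DESeq2). The Myh11 subgate was called, with 309 and 449 against 23.3 and 42.5 CPM (3.55 ± 0.36, adjusted p = 0.0165). The Rgs5 subgate was not, with 78.8 and 117 against 62.9 and 103 CPM (0.40 ± 0.26, adjusted p = 0.309).

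Adamts5 outside ECs fell in SMCs, with 20.7 and 23.1 against 65.8 and 52.5 CPM (-1.37 ± 0.16, adjusted p = 1.65e-08). The Myh11 cells, a smaller part of the gate in the mutants, held 61.1% and 80.6% in the mutants and 92.3% and 97.9% in the controls of its counts there. Within them the fall was smaller, with 44.5 and 60.2 against 93.1 and 74.0 CPM (-0.61 ± 0.19, adjusted p = 0.0412, 0.309 without control library 1 and over 0.05 without mutant library 1, 0.615 by DESeq2, over 0.05 with the looser cell filter, the stricter gate, the looser gate or free RNA subtracted). The Rgs5 cells had too few counts for a test, at 9.72 and 5.87 against 6.51 and 4.57 CPM, and overlapped. It fell in mpMSCs, with 102 and 119 against 206 and 218 CPM (-0.86 ± 0.10, adjusted p = 1.58e-06). SFCHOs had 58.4 and 71.0 against 106 and 117 CPM (-0.74 ± 0.09, adjusted p = 4.56e-04). In each of the 3 gates both mutants lay below both controls. It rose in GPCHOs, with 39.2 and 43.1 against 12.5 and 13.3 CPM (1.77 ± 0.10, adjusted p = 7.38e-11), so that there it moved in the same direction as its neighbour Adamts1. In OBs its level was 53.6 and 54.0 against 37.7 and 41.1 CPM (0.40 ± 0.11, adjusted p = 0.0405, 0.518 without control library 1 and over 0.05 without any other 1 of the 4, 0.442 by DESeq2, over 0.05 with no gene filter or the replicate block).

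Adamts9, which cuts versican and aggrecan, was called in 7 of 9 gates, higher in 5 and lower in 2. It fell in mpMSCs, its leading gate, with 217 and 225 against 656 and 595 CPM (-1.42 ± 0.09, adjusted p = 1.55e-10). It rose in dpMSCs, with 228 and 217 against 174 and 173 CPM (0.38 ± 0.06, adjusted p = 7.64e-06). The 2 effects differed by -1.81 ± 0.22 (adjusted p = 2.55e-05) in 1 model of all 9 gates. The kinds of SMC also had opposite signs, a difference that was not tested. The Myh11 subgate had 232 and 246 against 56.1 and 59.0 CPM (2.09 ± 0.14, adjusted p = 9.56e-12). The Rgs5 subgate had 104 and 112 against 208 and 151 CPM (-0.59 ± 0.16, adjusted p = 0.0108, 0.323 without control library 1 and over 0.05 without mutant library 1, 0.186 by DESeq2, over 0.05 with the stricter cell filter or the looser gate). ECs and SFCHOs also rose. ECs had 514 and 498 against 446 and 446 CPM (0.27 ± 0.06, adjusted p = 0.00193). SFCHOs had 21.0 and 29.9 against 10.7 and 16.8 CPM (0.92 ± 0.23, adjusted p = 0.0338, 0.152 without control library 1, over 0.05 with the stricter gate or total counts). Adamts15, a relative that cuts versican, fell in SMCs, with 56.7 and 51.6 against 133 and 93.5 CPM (-1.01 ± 0.14, adjusted p = 7.06e-06). In mpMSCs it fell as well, with 3.21 and 3.4997 against 13.5 and 11.5 CPM (-1.80 ± 0.37, adjusted p = 0.00119, 0.0615 by DESeq2).

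**Figure D4:**
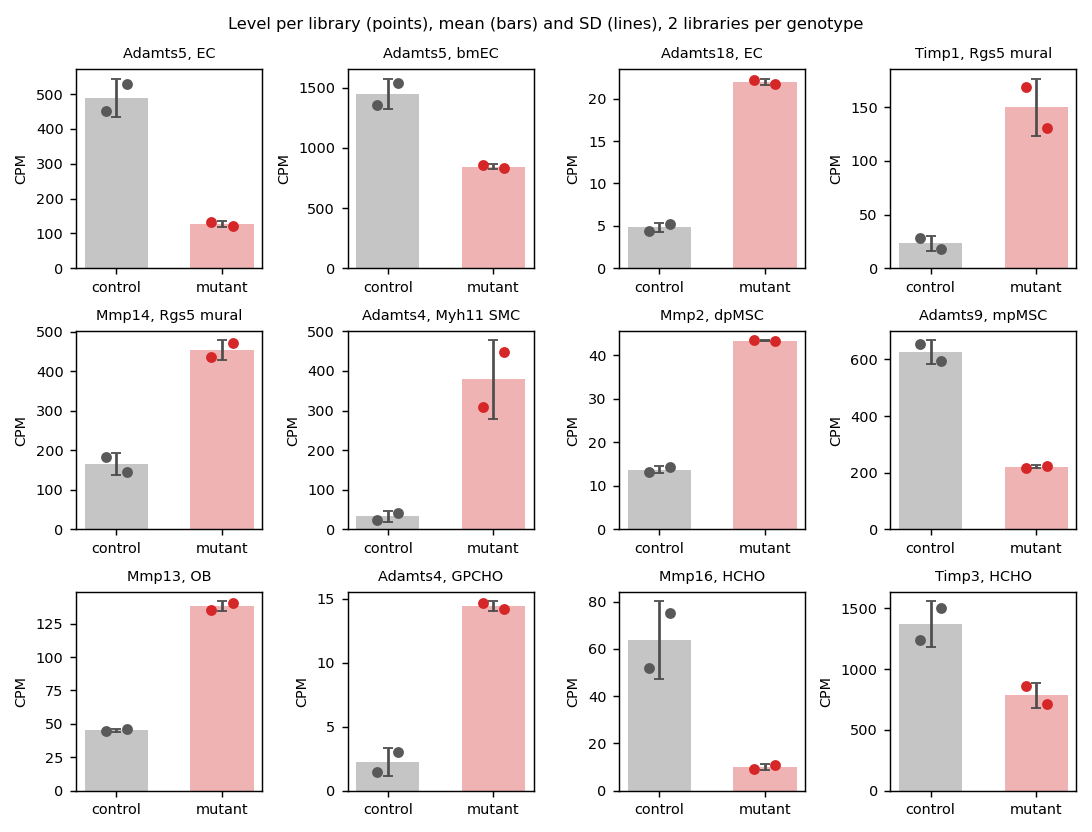
Level in CPM of 12 gene and gate pairs in each library (points) with the mean (bars from 0) and SD (lines), controls grey and mutants red, n = 2 libraries per genotype. In each panel both mutant points lie on one side of the controls, such as Adamts5 in ECs at 133 and 119.9 against 451 and 528 CPM.

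The other ADAMTS genes have less settled substrates. Adamts18 rose in ECs, with 22.2 and 21.7 against 4.41 and 5.21 CPM (2.27 ± 0.19, adjusted p = 1.65e-07). It rose in GPCHOs, with 7.82 and 9.01 against 2.93 and 2.30 CPM (1.78 ± 0.21, adjusted p = 1.51e-06). In HCHOs it rose on few counts, with 50 counts in the mutants and 4 in the controls, a ratio of 3.85 (95% counting interval 1.41 to 14.7) (1.89 ± 0.68, adjusted p = 0.0439, 0.0974 without control library 1 and over 0.05 without control library 2 or mutant library 1, 0.218 by DESeq2, over 0.05 with the looser gate or no gene filter, free RNA 27.6% of the level). In OBs its level was 33.5 and 27.9 against 20.8 and 16.1 CPM (0.68 ± 0.18, adjusted p = 0.0386, 0.459 without control library 2 and over 0.05 without any other 1 of the 4, 0.244 by DESeq2, over 0.05 with the looser cell filter, the stricter gate or free RNA subtracted). It fell in SFCHOs, with 85.6 and 84.9 against 112 and 119 CPM (-0.40 ± 0.07, adjusted p = 0.00409, 0.0582 by DESeq2, over 0.05 with the stricter gate). In mpMSCs its level was 209 and 189 against 151 and 116 CPM. Over the 9 gates Adamts18 was called higher in 5 and lower in 1. Among the vessels, bmECs had 19.0 and 13.1 against 3.12 and 5.08 CPM (1.99 ± 0.50, adjusted p = 0.0204, 0.419 without control library 1 and over 0.05 without control library 2 or mutant library 1).

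Adamts17 fell in ECs, with 4.22 and 4.67 against 12.6 and 9.83 CPM (-1.24 ± 0.25, adjusted p = 8.93e-04). In mpMSCs it fell as well, with 34.04 and 32.0 against 66.1 and 65.1 CPM (-0.92 ± 0.14, adjusted p = 5.10e-05). Adamts6 moved in both directions. It rose in mpMSCs, with 71.3 and 58.0 against 30.7 and 30.2 CPM (1.15 ± 0.15, adjusted p = 4.34e-06, over 0.05 with the stricter gate). Among kinds of EC, it rose in aECs, with 56.4 and 59.2 against 26.5 and 35.5 CPM (1.00 ± 0.20, adjusted p = 0.00156, 0.0635 by DESeq2). It fell in bmECs, with 19.0 and 11.8 against 37.2 and 31.0 CPM (-1.10 ± 0.31, adjusted p = 0.0378, 0.268 without mutant library 2 and over 0.05 without control library 1, 0.383 by DESeq2, over 0.05 with the stricter cell filter), and in mpECs, with 33.0 and 26.2 against 69.3 and 56.0 CPM (-1.01 ± 0.17, adjusted p = 2.71e-04). It also fell in HCHOs, with 64.7 and 79.9 against 183 and 153 CPM (-1.24 ± 0.11, adjusted p = 2.90e-06). In SFCHOs, the leading gate of Adamts6, the mutants lay below the controls, at 239 and 194 against 409 and 323 CPM (-0.72 ± 0.16, adjusted p = 0.0629, 0.0459 by DESeq2). Adamts12, which can cut the cartilage protein COMP, fell in HCHOs, with 11.7 and 12.7 against 39.3 and 31.7 CPM (-1.58 ± 0.16, adjusted p = 5.95e-06). So did Adamts10, whose product binds fibrillin, with 9.81 and 10.5 against 36.7 and 34.5 CPM (-1.84 ± 0.15, adjusted p = 1.27e-06). Adamts10 was called lower in 5 gates in all. It stood at 70.0 and 73.5 against 94.8 and 95.8 CPM (-0.37 ± 0.08, adjusted p = 4.02e-04) in dpMSCs and 13.1 and 12.3 against 16.4 and 16.7 CPM (-0.29 ± 0.11, adjusted p = 0.0489, 0.198 without mutant library 2 and over 0.05 without any other 1 of the 4, 0.387 by DESeq2, over 0.05 with the looser cell filter, the stricter gate, the looser gate, free RNA subtracted or the replicate block) in GPCHOs. In ECs, Adamts12 fell, with 11.5 and 12.5 against 20.1 and 23.2 CPM (-0.75 ± 0.16, adjusted p = 0.00138). Over the 9 gates Adamts12 was called higher in 3 and lower in 2. In mpMSCs its level was 66.1 and 63.5 against 38.1 and 43.2 CPM. In ECs Adamts7, another enzyme known to cut COMP, rose, with 18.02 and 19.4 against 11.9 and 13.6 CPM (0.64 ± 0.16, adjusted p = 0.00450, 0.125 by DESeq2). Mmp28, Adamts8 and Adamts20 were tested in 8, 1 and 1 gates and called in none. Adamts16 rose in mpMSCs, with 21 counts in the mutants and 4 in the controls, a ratio of 13.6 (95% counting interval 4.60 to 54.6) (3.73 ± 0.65, adjusted p = 2.13e-04). In FBs, its leading gate, both mutants lay below both controls without a call, at 36.8 and 45.3 against 72.3 and 63.4 CPM (-0.59 ± 0.22, adjusted p = 0.233).

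Of the inhibitors, Timp1, which is readily induced in injured tissue, rose in SMCs, mpMSCs and OBs. SMCs had 129.5 and 96.2 against 14.1 and 14.8 CPM (3.01 ± 0.19, adjusted p = 1.16e-11). The mpMSCs had 383 and 501 against 191 and 173 CPM (1.36 ± 0.11, adjusted p = 9.54e-07). OBs had 274 and 303 against 156 and 181 CPM (0.73 ± 0.08, adjusted p = 8.41e-05, over 0.05 with the stricter gate). HCHOs and SFCHOs went the other way. HCHOs had 204 and 208 against 373 and 369 CPM (-0.88 ± 0.07, adjusted p = 9.88e-07, over 0.05 with the stricter gate). SFCHOs had 198 and 199 against 473 and 351 CPM (-1.01 ± 0.15, adjusted p = 0.0119, over 0.05 with the stricter gate or the looser gate). Timp1 was thus called higher in SMCs, mpMSCs and OBs and lower in these 2 kinds of chondrocyte. Both subgates of SMCs rose. The Myh11 cells had 31.4 and 32.9 against 10.3 and 14.2 CPM (1.42 ± 0.30, adjusted p = 0.00249, 0.222 by DESeq2, over 0.05 with the stricter gate, free RNA 25.5% of the level). The Rgs5 cells had 169 and 131 against 28.2 and 18.3 CPM (2.82 ± 0.25, adjusted p = 1.47e-08). In ECs its level was 34.3 and 14.0 against 5.72 and 13.6 CPM (1.37 ± 0.84, adjusted p = 0.356, free RNA 29.1% of the level), which was not called.

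Timp2, which inhibits MMPs and also helps Mmp14 to activate the precursor of Mmp2, rose in 6 gates and fell in none of the 9. SMCs had 390.3 and 413 against 206 and 218 CPM (0.97 ± 0.08, adjusted p = 1.50e-11). The mpMSCs had 486 and 489 against 340.0 and 333 CPM (0.61 ± 0.08, adjusted p = 7.86e-06). OBs had 129.9 and 156 against 81.3 and 89.4 CPM (0.70 ± 0.09, adjusted p = 2.47e-04, 0.0768 without control library 1). The rises in ECs, GPCHOs and dpMSCs were smaller. ECs had 209.8 and 204 against 157 and 159.7 CPM (0.47 ± 0.07, adjusted p = 5.47e-05). GPCHOs had 271 and 269 against 208 and 212 CPM (0.45 ± 0.05, adjusted p = 1.64e-06). The dpMSCs had 291 and 277 against 247 and 259 CPM (0.20 ± 0.06, adjusted p = 0.0102, 0.207 without control library 1 and over 0.05 without mutant library 1, 0.115 by DESeq2, over 0.05 with the stricter gate or no gene filter). In SMCs, mpMSCs and dpMSCs, Timp2, Mmp14 and Mmp2 were thus all called higher. FBs, where Timp2 was highest, had 1138 and 1024 against 1066 and 1151 CPM (0.09 ± 0.13, adjusted p = 0.825).

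Timp3, the matrix-bound inhibitor that also acts on aggrecanases, was called in 7 of 9 gates, higher in 3 and lower in 4. SMCs had 990.4 and 1001 against 623 and 642 CPM (0.71 ± 0.07, adjusted p = 2.61e-10). The mpMSCs had 338 and 286 against 188 and 166 CPM (0.89 ± 0.10, adjusted p = 1.08e-06, over 0.05 with the stricter gate). GPCHOs had 391 and 447 against 343 and 318 CPM (0.44 ± 0.06, adjusted p = 2.66e-05). The falls were in ECs, dpMSCs, HCHOs and SFCHOs. ECs had 806 and 742 against 1036 and 1005 CPM (-0.32 ± 0.06, adjusted p = 4.53e-04). The dpMSCs had 46.8 and 48.6 against 70.9 and 73.3 CPM (-0.56 ± 0.09, adjusted p = 9.42e-06, over 0.05 with the looser gate). HCHOs had 858 and 711 against 1236 and 1502 CPM (-0.83 ± 0.13, adjusted p = 0.00296). SFCHOs, where the fall was smaller than in HCHOs, had 782 and 791 against 1094 and 1091 CPM (-0.43 ± 0.06, adjusted p = 6.20e-04). Within SMCs the Rgs5 subgate had 1289 and 1251 against 323 and 432 CPM (1.90 ± 0.12, adjusted p = 3.75e-11). In the Myh11 subgate both mutants lay below both controls without a call, at 558 and 633 against 725 and 701 CPM (-0.22 ± 0.09, adjusted p = 0.138).

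Timp4, known from heart and vessel walls, fell in SMCs, its leading gate, with 172 and 174 against 329 and 397 CPM (-1.02 ± 0.09, adjusted p = 8.50e-11). The Myh11 cells, which held more of it, overlapped, at 507 and 495 against 417 and 522 CPM (0.13 ± 0.10, adjusted p = 0.510). The Rgs5 cells fell, with 29.2 and 22.2 against 45.5 and 68.5 CPM (-1.01 ± 0.27, adjusted p = 0.00876, 0.247 without control library 2 and over 0.05 without mutant library 2, 0.183 by DESeq2, over 0.05 with the stricter cell filter), and made up a larger share of the gate in the mutants, as given above. In aECs it rose, with 61.5 and 79.1 against 19.5 and 24.3 CPM (1.79 ± 0.21, adjusted p = 6.54e-06). The dpMSCs had 67.5 and 64.4 against 36.3 and 41.0 CPM (0.80 ± 0.10, adjusted p = 6.52e-08). GPCHOs had 6.80 and 8.93 against 3.81 and 2.14 CPM (1.497 ± 0.24, adjusted p = 1.18e-04). The GPCHO levels were low in both genotypes. In SFCHOs its level was 8.62 and 5.10 against 1.85 and 3.42 CPM (1.37 ± 0.38, adjusted p = 0.0392, 0.220 without control library 1 and over 0.05 without mutant library 1, 0.191 by DESeq2, over 0.05 with the stricter gate).

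Other calls over all SMCs were not shared by both subgates. Mmp2 had log2 fold changes of 2.30 ± 0.34 (adjusted p = 1.47e-05) in the Rgs5 and 0.53 ± 0.48 (adjusted p = 0.592, free RNA 38.8% of the level) in the Myh11 cells. Adamts2 had 1.16 ± 0.11 (adjusted p = 4.46e-08) in the Rgs5 and 0.50 ± 0.17 (adjusted p = 0.0856) in the Myh11 cells. Timp2 had 1.00 ± 0.12 (adjusted p = 1.08e-06) in the Rgs5 and 0.28 ± 0.11 (adjusted p = 0.136) in the Myh11 cells. Of the subgates, only the Rgs5 cells thus called these 3 genes, and the difference between the subgates was not tested. Adamts15 fell in the Rgs5 cells, with -1.67 ± 0.17 (adjusted p = 7.21e-08), and had -0.47 ± 0.19 (adjusted p = 0.140) in the Myh11 cells. Adamts14 fell in the Myh11 cells, with -1.31 ± 0.25 (adjusted p = 7.21e-04, 0.0949 by DESeq2), and had -1.19 ± 0.57 (adjusted p = 0.156) in the Rgs5 cells. Mmp17 had -0.68 ± 0.29 (adjusted p = 0.168) in the Myh11 cells and was not tested in the others. Adamts1 had 0.26 ± 0.34 (adjusted p = 0.663) in the Rgs5 cells. Adamts12 was called over all SMCs, with 228 and 245 against 151 and 130.2 CPM (0.80 ± 0.10, adjusted p = 2.82e-08), but in neither subgate. The Rgs5 cells, which held most of it, had 273 and 346 against 412 and 361 CPM (-0.17 ± 0.13, adjusted p = 0.393), with both mutants below both controls. The Myh11 cells had 75.9 and 58.6 against 41.4 and 48.0 CPM (0.61 ± 0.20, adjusted p = 0.0524). Adamts7 was called over all SMCs as well, with 8.35 and 6.70 against 1.69 and 3.83 CPM (1.47 ± 0.47, adjusted p = 0.0144, 0.206 without mutant library 1 and over 0.05 without control library 1 or mutant library 2, 0.278 by DESeq2, over 0.05 with the stricter cell filter), and had 0.11 ± 0.51 (adjusted p = 0.913) in the Rgs5 cells.

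Calls over all ECs also differed from those within vessels. Timp3 fell in aECs, with -0.35 ± 0.08 (adjusted p = 0.00431, 0.111 without mutant library 2 and over 0.05 without control library 1), and in mpECs, with -0.58 ± 0.07 (adjusted p = 1.67e-05), but had 0.19 ± 0.11 (adjusted p = 0.335) in bmECs. Adamts9 rose in aECs, with 0.36 ± 0.11 (adjusted p = 0.0263, 0.261 without control library 1 and over 0.05 without mutant library 2, 0.128 by DESeq2, over 0.05 with the stricter gate or total counts), and in bmECs, with 0.49 ± 0.12 (adjusted p = 0.0149, 0.0936 without mutant library 1 and over 0.05 without control library 1), but had 0.04 ± 0.07 (adjusted p = 0.761) in mpECs. Adamts7 rose in mpECs, with 1.26 ± 0.21 (adjusted p = 2.79e-04), and had -1.14 ± 0.48 (adjusted p = 0.154) in bmECs. Adamts18 rose in mpECs, with 1.73 ± 0.31 (adjusted p = 4.44e-04). Mmp15 fell in aECs, with -0.66 ± 0.16 (adjusted p = 0.00601, 0.0519 without control library 2, 0.189 by DESeq2), and in mpECs, with -0.51 ± 0.14 (adjusted p = 0.0119, 0.112 without mutant library 2 and over 0.05 without control library 1, 0.2501 by DESeq2). Mmp25 fell in mpECs, with -1.92 ± 0.58 (adjusted p = 0.0189, 0.272 without mutant library 2 and over 0.05 without any other 1 of the 4). For Mmp2, Mmp14, Adamts12, Adamts17 and Timp2 none of the 3 kinds of vessel was called, and Mmp2 had -0.38 ± 0.25 (adjusted p = 0.354) in aECs, the other direction from all ECs.

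The 2 growth plate stages were set against each other in the model of all 9 gates. This contrast called the genotype effect different for 10 of 34 members and 19.6% of all genes (plot of chondrocyte effects). All 10 differences were negative, that is, the effect was lower in HCHOs than in GPCHOs. Adamts1, which had risen in GPCHOs and fallen in HCHOs, differed by -2.53 ± 0.18 (adjusted p = 9.65e-13, at most 5.96e-07 without 1 library). Adamts12 differed by -1.95 ± 0.21 (adjusted p = 1.93e-09, at most 3.46e-06 without 1 library). Adamts10 differed by -1.54 ± 0.18 (adjusted p = 1.84e-08, at most 2.61e-05 without 1 library). Adamts3, which fell in both gates, differed by -1.37 ± 0.15 (adjusted p = 5.90e-09, at most 2.96e-04 without 1 library). Mmp16, lower in both as well, differed by -1.83 ± 0.27 (adjusted p = 2.54e-05, at most 0.00325 without 1 library).

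Adamts5 differed by -1.83 ± 0.33 (adjusted p = 2.90e-04, at most 0.0132 without 1 library), with 15.9 and 17.7 against 20.9 and 13.5 CPM (-0.07 ± 0.20, adjusted p = 0.808) in HCHOs, where it was not called. Adamts6 differed by -0.99 ± 0.22 (adjusted p = 0.00247, at most 0.0416 without 1 library). The differences of Adamts9, Timp3 and Timp2 did not keep an adjusted p of at most 0.05 without each library. Beside these results, HCHOs counted 809 and 833 in the mutants and 167 and 147 in the controls, their median depth was 8751 and 8280.0 against 16439 and 16915 UMIs, and their own marker list summed to 24899.5 and 25211 against 31412 and 30274 CPM. The part of cell number, depth and markers in the differences was not tested.

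**Figure D5:**
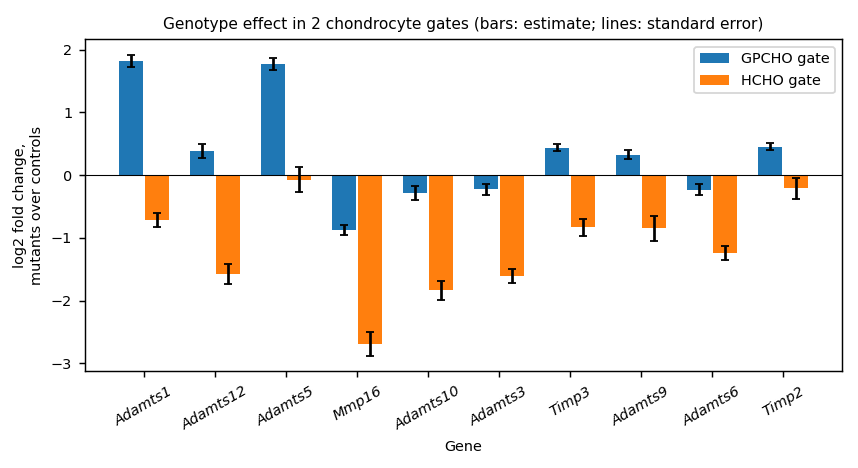
log2 fold change of mutants over controls (bars, with SE as lines) in GPCHOs (blue) and HCHOs (orange) for the 10 members whose effect differed between the gates. Each orange bar lies below its blue neighbour, with Adamts1 at 1.82 and -0.72.

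The same kind of model set mpMSCs against dpMSCs and called 7 of 34 members and 3.8% of all genes, and 4 members when any 1 library was left out. The effect was lower in mpMSCs for Adamts9, Adamts15, Adamts17, Mmp2, Adamts5 and Mmp11 and higher for Timp3. Mmp2, which rose in both gates, differed by -1.28 ± 0.20 (adjusted p = 1.50e-04, at most 0.00444 without 1 library). Timp3, which rose in mpMSCs and fell in dpMSCs, differed by 1.44 ± 0.30 (adjusted p = 0.00956, up to 0.221 without 1 library). Adamts15 differed by -2.17 ± 0.52 (adjusted p = 0.00867, up to 0.189 without 1 library). Adamts5 differed by -0.96 ± 0.19 (adjusted p = 0.00452, up to 0.383 without 1 library). The calls of these 3 differences were lost without 1 library, and those of Mmp2 and Adamts9 were not. In mpMSCs the OB list summed to 959 and 954 against 3982 and 3658 CPM, and its part in the differences was not tested.

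Genes that activate, inhibit or anchor these enzymes were read as 1 list of 28, and known substrates as another of 20. Of the regulators tested, the numbers called higher and lower were 15 and 3 of 24 in SMCs, 14 and 4 of 24 in mpMSCs, 11 and 2 of 25 in dpMSCs and 8 and 6 of 27 in ECs, beside the backgrounds given above. They were 9 and 4 of 25 in GPCHOs, 6 and 6 of 21 in HCHOs, 4 and 2 of 22 in OBs, 2 and 4 of 26 in SFCHOs and 2 and 0 of 24 in FBs. The median log2 fold change of the list was 0.64 in SMCs, 0.58 in mpMSCs and 0.27 in ECs.

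Tll1, a procollagen C-proteinase, rose in ECs, with 114 and 131 against 26.6 and 26.9 CPM (2.28 ± 0.10, adjusted p = 1.66e-10). Both mutant libraries lay above both controls. Adamtsl1, an ADAMTS-like protein without a protease domain, rose in mpMSCs, with 35.3 and 39.5 against 1.35 and 1.46 CPM (4.77 ± 0.30, adjusted p = 1.85e-10). HCHOs had 37.8 and 36.9 against 2.94 and 4.26 CPM (3.33 ± 0.22, adjusted p = 1.34e-07). OBs and dpMSCs were also called higher. By the main settings it fell in SMCs, with 75.7 and 87.4 against 242 and 274 CPM (-1.61 ± 0.10, adjusted p = 7.67e-15). By the same settings Adamtsl1 was lower in ECs, with 10.7 and 14.0 against 16.2 and 22.7 CPM (-0.55 ± 0.19, adjusted p = 0.0379). Its relative Adamtsl2 fell in ECs, with 3.64 and 2.92 against 12.2 and 12.7 CPM (-1.84 ± 0.25, adjusted p = 2.82e-05). A2m, a broad trap for proteases, fell in mpMSCs, with 6.42 and 2.50 against 53.1 and 69.8 CPM (-3.78 ± 0.31, adjusted p = 4.82e-07). Plaur, the urokinase receptor, rose in mpMSCs, with 21.2 and 13.5 against 1.80 and 2.09 CPM (3.18 ± 0.38, adjusted p = 2.19e-06). In HCHOs it had 120.4 and 124 against 24.2 and 30.9 CPM (2.12 ± 0.12, adjusted p = 4.55e-08). Bsg, known as an inducer of MMPs, rose in HCHOs, with 2157 and 2079 against 354 and 369 CPM (2.52 ± 0.07, adjusted p = 2.26e-10). In SMCs, Serpine2, an inhibitor of serine proteases, rose, with 3019.8 and 3113 against 695 and 747 CPM (2.14 ± 0.07, adjusted p = 2.80e-23).

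Of the substrates tested, the numbers called higher and lower were 9 and 0 of 20 in SMCs, 9 and 3 of 20 in dpMSCs, 7 and 1 of 20 in ECs, 7 and 2 of 19 in mpMSCs and 3 and 13 of 20 in HCHOs. They were 4 and 7 of 20 in GPCHOs, 3 and 3 of 20 in OBs, 1 and 3 of 19 in SFCHOs and 3 and 0 of 19 in FBs. Acan, Col9a1, Matn3, Hapln1, Col10a1 and Spp1 of this list, and Ctsk of the regulators, served as gate markers, so that their levels are tied to the sorting. The 6 of this list were all among the 13 called lower in HCHOs. Of all genes, 31.5% were called in SMCs, 22.2% in dpMSCs, 37.2% in ECs, 21.2% in mpMSCs, 41.3% in HCHOs and 35.6% in GPCHOs. For OBs, SFCHOs and FBs the shares were 6.49%, 9.88% and 1.8%.

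In ECs, Vcan, the gene of the proteoglycan versican, rose, with 23.2 and 40.5 against 6.70 and 5.04 CPM (2.54 ± 0.38, adjusted p = 0.00705, over 0.05 with the looser gate). So did Fn1, for fibronectin, with 1149 and 726 against 183 and 214 CPM (2.32 ± 0.35, adjusted p = 0.0452, over 0.05 without control library 1 or control library 2, over 0.05 with the looser gate, no gene filter, total counts or the replicate block). Col1a1 fell there, with 92.0 and 71.1 against 438 and 468 CPM (-2.39 ± 0.10, adjusted p = 2.17e-08, over 0.05 with the looser gate), and the OB list in ECs moved with it, at 126 and 103 against 453 and 605 CPM, a part that was not tested. In mpMSCs, Comp, for a cartilage matrix protein, rose, with 1489 and 1677 against 254 and 389 CPM (2.38 ± 0.28, adjusted p = 0.0279, over 0.05 with the stricter gate or the looser gate). Fmod, for fibromodulin, rose with 438 and 628 against 101 and 119 CPM (2.36 ± 0.21, adjusted p = 0.00291, over 0.05 with the stricter gate). In the same gate Timp1, Timp2 and Timp3 were called higher and Adamts9 and Adamts5 lower. Acan, a gate marker, was also called higher there, at 206 and 169 against 70.4 and 85.9 CPM (1.33 ± 0.12, adjusted p = 3.14e-07). Col2a1 stood at 2510 and 2131 against 314 and 633 CPM (2.37 ± 0.51, adjusted p = 0.120) without a call. Col9a1 and Matn3 lay lower in both mutants, also without a call. The part of such cartilage genes in these levels was not tested. In SMCs the basement membrane collagen Col4a1 rose, with 2582 and 2668 against 953 and 971 CPM (1.5002 ± 0.06, adjusted p = 2.07e-19). Bgn, for biglycan, rose with 1602 and 1600.1 against 496 and 565 CPM (1.65 ± 0.07, adjusted p = 4.42e-19).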

How the data were processed

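The deposited files hold estimated counts per gene and barcode. The authors trimmed reads with cutadapt 3.5 and counted UMIs with STARsolo 2.7.10a against GRCm39 and GENCODE M26, sharing reads of several genes by expectation maximisation, so the expected counts need not be whole and near-identical genes may share reads. Barcodes with at least 1000 UMIs, 800 genes, a complexity of 0.8 or more and shares of up to 15% for mitochondrial and 5% for hemoglobin genes were kept and gated by their mean marker score (at least 0.5, with a lead of 0.2 over the second list). Counts were summed per gate and library, rounded and tested with edgeR 4.0.16 (TMM, filterByExpr, quasi-likelihood test, R 4.3.3), and with DESeq2 1.42.0 as an alternative. Scripts were tested on simulated data, and free RNA was estimated from near-empty barcodes.

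The members and lists were chosen with earlier results of these data known. Named were, per gate, up to 5 called members per direction with the largest change and no overlap, 10 set members (Timp1, Timp2, Timp3, Mmp2, Mmp9, Mmp13, Mmp14, Adamts1, Adamts4 and Adamts5), the 3 with the highest control CPM, and the 4 largest called changes of each pathway list, of which 1 gene is not reported here. Values in the subgates and those of Mmp15 in ECs, Mmp3 in FBs and mpMSCs, Mmp11 and Mmp16 in mpMSCs, Adamts2, Adamts7 and Adamts12 in SMCs, Adamts9 in dpMSCs and Timp4 in GPCHOs were named after they were seen. So were Adamts16 in FBs, Adamts6 in SFCHOs and Adamts18 in mpMSCs. The same holds for Adamtsl1 outside mpMSCs and HCHOs, Ctsk and Spp1 in SMCs, and Acan, Col2a1, Col9a1 and Matn3 in mpMSCs. Python 3.11.15 with pandas 2.3.3 and scipy 1.17.1 was used. Cell filters, gates, gene filters, scaling, test, free RNA, the replicate number as a block and left-out libraries were varied.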

Additional observations from a re-analysis of the deposited data

Results flagged for a closer look

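Genotype effects that differed between gates by an edgeR interaction term, with p-values adjusted over all genes, are listed here as differences of log2 fold changes. In ECs against the mean of the other 8 gates, Adamts4 by -0.99, Mmp9 by -4.85, Adamts2 by -0.89, Mmp14 by -0.86, Adamts12 by -0.77 and Adamts5 by -1.78 differed, a test that called 13.6% of all genes. Without 1 library the adjusted p rose above 0.05, to the highest value given, for Adamts4 (0.169), Mmp9 (0.925), Adamts2 (0.550), Mmp14 (0.243) and Adamts12 (0.0790), and stayed below it for Adamts5. In HCHOs against GPCHOs, Mmp16 by -1.83, Adamts3 by -1.37, Adamts9 by -1.16, Timp3 by -1.26, Timp2 by -0.65, Adamts6 by -0.99, Adamts12 by -1.95, Adamts1 by -2.53, Adamts5 by -1.83 and Adamts10 by -1.54 differed, against 19.6% of all genes, and the call was lost without 1 library for Adamts9 (0.266), Timp3 (0.0959) and Timp2 (0.114). In mpMSCs against dpMSCs, Adamts9 by -1.81, Adamts17 by -1.47, Mmp2 by -1.28, Adamts15 by -2.17, Mmp11 by -0.79, Timp3 by 1.44 and Adamts5 by -0.96 differed, against 3.8% of all genes, and the call was lost without 1 library for Adamts17 (0.181), Adamts15 (0.189), Mmp11 (0.428), Timp3 (0.221) and Adamts5 (0.383). With 2 libraries per genotype, no search for libraries that stand apart within a group was made.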

How the results depend on the processing

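Of 131 log2 fold changes named by the rule above, 90 were called, and 0 of those changed sign under any alternative run. Part of them were named for a large change without overlap of the genotypes, a choice that makes a change of sign unlikely. Over the alternatives, 1668 values kept their side of the threshold, 115 lost a call, 63 gained one and 49 uncalled ones changed sign. The causes were not tested. The counts of members here and in the next paragraph stand without the share of all genes under each alternative. They are thus not read against that share. Counts of called members moved by over 1.5 times with a log2 fold change of at least 1 asked for (5 in ECs, 4 in dpMSCs, 7 in mpMSCs, 2 in OBs, 6 in GPCHOs, 6 in HCHOs, 2 in SFCHOs, 4 in aECs and 3 in bmECs), by construction, with DESeq2 (9 in GPCHOs, 4 in aECs, 3 in bmECs, 4 in mpECs and 4 in Myh11 SMCs), among genes counted in at least 20% of cells (8 in ECs and 7 in GPCHOs), with a stricter gate (3 in SFCHOs) and with a looser gate, chosen after seeing the data (3 in FBs). The uncalled log2 fold changes that changed sign did so with the looser gate for Mmp13 in dpMSCs (0.038), Mmp9 in OBs (-0.58), Mmp14 in GPCHOs (0.017), Mmp14 in HCHOs (-0.038), Timp2 in FBs (-0.10) and Mmp2 in FBs (-0.033), with the stricter gate for Mmp9 in mpMSCs (-0.011), Timp3 in OBs (-0.47), Timp1 in GPCHOs (-0.043), Timp3 in FBs (-0.42) and Adamts5 in FBs (0.26), with free RNA subtracted for Mmp13 in GPCHOs (-0.23), Mmp14 in HCHOs (-0.035) and Mmp13 in SFCHOs (-0.18), with total counts for Timp2 in FBs (-0.042) and Mmp2 in FBs (-0.044), with DESeq2 for Mmp13 in ECs (0.011), without a filter on low counts for Timp3 in OBs (-0.013) and with the stricter cell filter for Mmp13 in FBs (-0.034).

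Leaving out 1 library at a time, with the lone library of a genotype assumed to vary like the others, gave 3 to 7 called members in OBs, 0 to 1 in FBs and 3 to 7 in bmECs, 2 to 4 members whose effect in ECs differed from the other gates and 4 to 4 whose effect differed between mpMSCs and dpMSCs. The uncalled log2 fold changes that changed sign ranged as follows: Mmp9 in ECs -3.05 to 1.90, Mmp13 in ECs -0.99 to 1.54, Timp1 in dpMSCs -0.27 to 0.047, Adamts5 in dpMSCs -0.16 to 0.36, Mmp9 in mpMSCs -0.12 to 1.02, Timp3 in OBs -0.15 to 0.28, Timp1 in GPCHOs -0.10 to 0.36, Mmp2 in GPCHOs -0.024 to 0.27, Mmp13 in GPCHOs -0.54 to 1.23, Timp2 in HCHOs -0.49 to 0.10, Mmp14 in HCHOs -0.55 to 0.43, Adamts5 in HCHOs -0.34 to 0.26, Mmp13 in SFCHOs -1.22 to 0.85, Timp1 in FBs -0.20 to 1.23, Timp2 in FBs -0.0024 to 0.19, Timp3 in FBs -0.23 to 0.69, Mmp2 in FBs -0.020 to 0.21, Adamts1 in FBs -0.038 to 0.76 and Adamts5 in FBs -0.36 to 0.40. Libraries with the same number did not deviate together (correlations of -0.0434 to 0.0598 over genes). With 2 libraries per genotype this cannot settle whether libraries of the same number are pairs. With the replicate number as a block the called members were 18 in ECs, 14 in dpMSCs, 21 in mpMSCs, 7 in OBs, 14 in GPCHOs, 10 in HCHOs, 10 in SFCHOs, 18 in SMCs, 0 in FBs, 10 in aECs, 6 in bmECs, 7 in mpECs, 11 in Myh11 SMCs and 13 in Rgs5 mural cells, and the sign changed for Mmp13 in ECs (0.040) and Mmp14 in HCHOs (-0.026).

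With 2 libraries per genotype an exact permutation test cannot go below 0.333, so calls rest on the spread pooled over genes. Genes with few counts have wide intervals, cell classes are rebuilt from markers, and no doublet caller was run.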
